A study of Rattus norvegicus with 6 samples.

Results

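The transcription factor NRF2 and a small set of antioxidant enzymes were followed in rat femur RNA. The set holds 6 of the 32545 genes in the deposited table, chosen by a list of Ensembl IDs whose rule uses no measured value, although the list was drawn up with earlier results of these data known: Nfe2l2 (ENSRNOG00000001548), which encodes NRF2, Hmox1 (ENSRNOG00000014117), Nqo1 (ENSRNOG00000012772), Cat (ENSRNOG00000008364), Sod1 (ENSRNOG00000002115) and Sod2 (ENSRNOG00000019048). All 6 IDs were present, and all 6 were among the 13431 genes with enough reads to be tested. The pairing of these IDs with their symbols came with the list. The rat gene table used here (RefSeq, 47357 genes) holds all 6 symbols but pairs none with an Ensembl ID, so the pairing could be neither checked nor contradicted.

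The study compared polyadenylated RNA from the femur of Wistar rats, an outbred laboratory strain, between a control group and a group under chronic sleep deprivation (CSD), with 3 libraries in each. Its title asks about bone formation in growing rats and PI3K/AKT signalling. By the sample labels controls 1, 2 and 3 were 12, 13 and 14 weeks old and CSD 1, 2 and 3 were 15, 16 and 17 weeks old, whereas the series description gives 12 weeks for the rats. The labelled age goes up by exactly 1 week from each library to the next in the order listed, so it may not be the true age. Every CSD library is thus labelled older than every control, and treatment and labelled age cannot be told apart in any comparison given here. The sources used here do not give the method and length of the deprivation, the sex of the rats, whether marrow was removed or whether each library came from its own animal. The p-values therefore measure the spread between these libraries only, which may in part be technical. Tissue markers were not checked, because no other ID could be matched to a symbol.

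NRF2 is held at a low level by its sensor KEAP1, which marks it for degradation. Oxidants and reactive chemicals release it, and it then binds antioxidant response elements in the promoters of its targets, among which Hmox1 and Nqo1 are standard readouts. Because NRF2 is controlled largely as a protein, the level of its mRNA need not follow its activity. Superoxide dismutases turn superoxide into hydrogen peroxide, and catalase breaks hydrogen peroxide down into water and oxygen. In bone and marrow, heme oxygenase 1 is also an enzyme of macrophages that recycle heme from red cells, and catalase is abundant in red cells.

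Libraries held 8366443 to 9572898 reads in genes. No gene of the 13431 passed an adjusted p of 0.05 between CSD and control (edgeR's quasi-likelihood test, Benjamini-Hochberg adjustment; 0% called, smallest adjusted p 0.124). An unadjusted p under 0.05 was found for 1679 genes (12.5% called), and with DESeq2 on all genes 297 passed an adjusted p of 0.05. The median log2 fold change of all tested genes was 0.003, with quartiles of -0.22 and 0.19. Of the 6 antioxidant genes, 0 passed the adjusted threshold and 0 had an unadjusted p under 0.05. The fitted level was higher in CSD for 4 of these 6 genes and lower for 2, and the median log2 fold change of the 6 was 0.14. Of all tested genes, 50.3% were higher in CSD. The CSD libraries lay apart from the controls for 1 of the 6 genes, Nqo1, though not with libraries scaled to their totals alone. For comparison, 16.8% of all tested genes had groups that did not overlap in either direction and 8.77% had all CSD libraries above all controls.

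**Figure D1:**
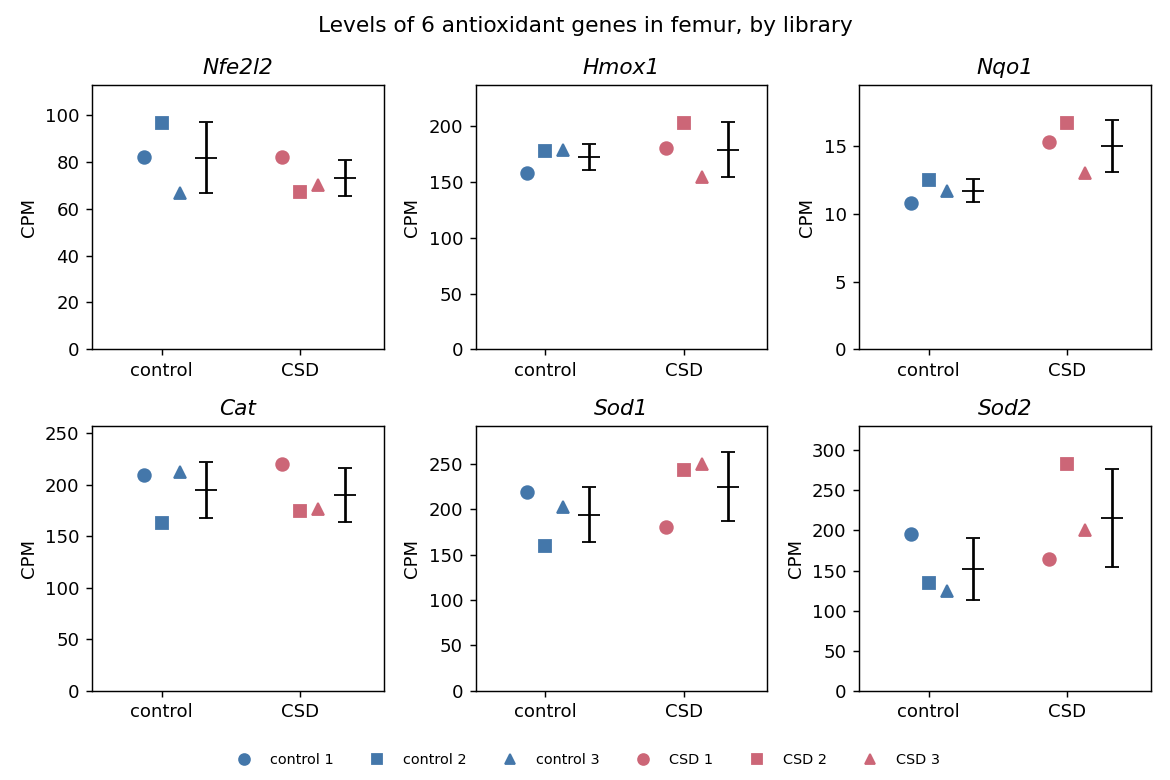
Levels of the 6 genes in each library, in CPM (scaled counts, y axis from 0), for 3 control (blue) and 3 CSD (red) libraries; the shape gives the library number, and black bars give the group mean ± SD. Only Nqo1 has all CSD libraries (13.0 to 16.7 CPM) above all controls (10.8 to 12.5 CPM), which it has not when libraries are scaled to totals alone, and Sod2 has the widest spread (125 to 283 CPM).

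Nfe2l2, the regulator, had the lowest CSD mean relative to control of the set, by a margin smaller than the spread between libraries. Its level was 81.9, 96.6 and 66.7 CPM in controls 1, 2 and 3 and 81.9, 67.2 and 70.2 CPM in CSD 1, 2 and 3, where CPM are gene reads scaled to library size with TMM factors. Control 3 was the lowest library and control 2 the highest, so with this scaling the whole CSD range lay within that of the controls. The lowest CSD library fell below the lowest control with upper-quartile factors (67.3 against 67.6 CPM) and with totals alone (61.3 against 70.3 CPM). With TMM factors the control mean was 81.7 ± 15.0 CPM and the CSD mean 73.1 ± 7.77 CPM (SD, n = 3 each). The log2 fold change of CSD against control was -0.16 (SE 0.16; edgeR adjusted p = 0.689). Its 95% interval ran from a 0.69-fold to a 1.15-fold level in CSD. Without control 2 the log2 fold change was -0.02, and without control 3 it was -0.29.

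Hmox1 encodes heme oxygenase 1, which splits heme into biliverdin, iron and carbon monoxide. Its level was 158, 178 and 179 CPM in controls 1, 2 and 3 and 180, 203 and 154 CPM in CSD 1, 2 and 3. With this TMM scaling CSD held both the highest library (CSD 2) and the lowest (CSD 3), and the controls lay between them. With totals alone the highest control, at 189 CPM, lay above the highest CSD library, at 185 CPM. The TMM-scaled means were 172 ± 11.7 CPM and 179 ± 24.6 CPM (SD, n = 3 each), with a log2 fold change of 0.06 (SE 0.14; edgeR adjusted p = 0.882). The 95% interval, 0.84-fold to 1.29-fold, was the narrowest of the 6 genes on the log2 scale. The sign of this small difference was not stable: it was -0.05 without CSD 2 and -0.08 with libraries scaled to their totals alone, a scaling that moved the median of all tested genes to -0.13.

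Nqo1 encodes a quinone reductase that uses NADH or NADPH and keeps quinones out of redox cycling. It had few reads, 96, 118 and 107 in controls 1, 2 and 3 and 131, 146 and 110 in CSD 1, 2 and 3. Scaled, these were 10.8, 12.5 and 11.7 CPM in controls and 15.3, 16.7 and 13.0 CPM in CSD. All 3 CSD libraries were above all 3 controls, although the gap between control 2 and CSD 3 was small. Counting error alone gave 95% intervals of 10.3 to 15.0 CPM for control 2 and 10.6 to 15.6 CPM for CSD 3 (exact Poisson), which overlap almost entirely. Means of 11.7 ± 0.863 CPM and 15.0 ± 1.91 CPM (SD, n = 3 each) gave a log2 fold change of 0.36 (SE 0.18), or 1.28-fold with a 95% interval of 0.97 to 1.71. The difference did not pass the test (edgeR unadjusted p = 0.0776, adjusted p = 0.439; exact two-sided permutation test p = 0.1, the smallest that 3 against 3 libraries can give). A smaller unadjusted p than that of Nqo1 was found for 17.7% of all tested genes. With libraries scaled to totals alone the groups overlapped, with CSD 3 at 12.3 CPM and the highest control at 12.8 CPM. The log2 fold change was then 0.23, or 0.36 relative to the median of all tested genes, which that scaling moved to -0.13. The groups stayed apart with DESeq2 size factors and, narrowly, with upper-quartile factors (highest control 12.5 CPM, lowest CSD library 12.8 CPM).

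Sod1 encodes the copper-zinc superoxide dismutase of the cytosol. Its level was 219, 160 and 202 CPM in controls 1, 2 and 3 and 181, 243 and 250 CPM in CSD 1, 2 and 3. CSD 2 and CSD 3 lay above every control, but CSD 1 lay below controls 1 and 3. The means were 194 ± 30.3 CPM and 225 ± 38.2 CPM (SD, n = 3 each). The log2 fold change was 0.21 (SE 0.17; edgeR adjusted p = 0.618), with a 95% interval from 0.88-fold to 1.53-fold. It was 0.09 without control 2, 0.13 without CSD 3 and 0.34 without CSD 1. With libraries scaled to totals alone it was 0.07, or 0.2 relative to the median of all tested genes, which that scaling moved to -0.13.

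Sod2 encodes the manganese superoxide dismutase of the mitochondrial matrix, and it had the largest fold change of the set. Its level was 196, 134 and 125 CPM in controls 1, 2 and 3 and 164, 283 and 200 CPM in CSD 1, 2 and 3. CSD 2 stood highest and controls 2 and 3 lowest, while control 1 lay above CSD 1 and close to CSD 3. The control mean was 152 ± 38.8 CPM and the CSD mean 216 ± 61.1 CPM (SD, n = 3 each), a log2 fold change of 0.51 (SE 0.24). On the linear scale this was 1.42-fold, with a 95% interval of 0.97 to 2.08. It did not pass the test (edgeR unadjusted p = 0.0652, adjusted p = 0.422; exact two-sided permutation test p = 0.2), and 17.3% of all tested genes had a larger fold change in either direction. The size rested on single libraries: without CSD 2 the log2 fold change was 0.26 (edgeR adjusted p = 0.870), and without control 1 it was 0.74 (edgeR unadjusted p = 0.0142, adjusted p = 0.209). Its adjusted p was 0.133 to 0.870 over the 18 alternative analyses.

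Cat encodes catalase, the peroxisomal enzyme that removes hydrogen peroxide. Its level was 209, 163 and 212 CPM in controls 1, 2 and 3 and 220, 174 and 176 CPM in CSD 1, 2 and 3. Each group held high and low libraries, with CSD 1 the highest and control 2 the lowest of all. The means were 195 ± 27.3 CPM and 190 ± 26.3 CPM (SD, n = 3 each), with a log2 fold change of -0.04 (SE 0.15; edgeR adjusted p = 0.938) and a 95% interval from 0.76-fold to 1.25-fold. The direction of this value turned in 4 of the 6 analyses that left out a library. In femur RNA, fewer cells of a type and less RNA per cell cannot be told apart, for this gene or any other of the set.

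**Figure D2:**
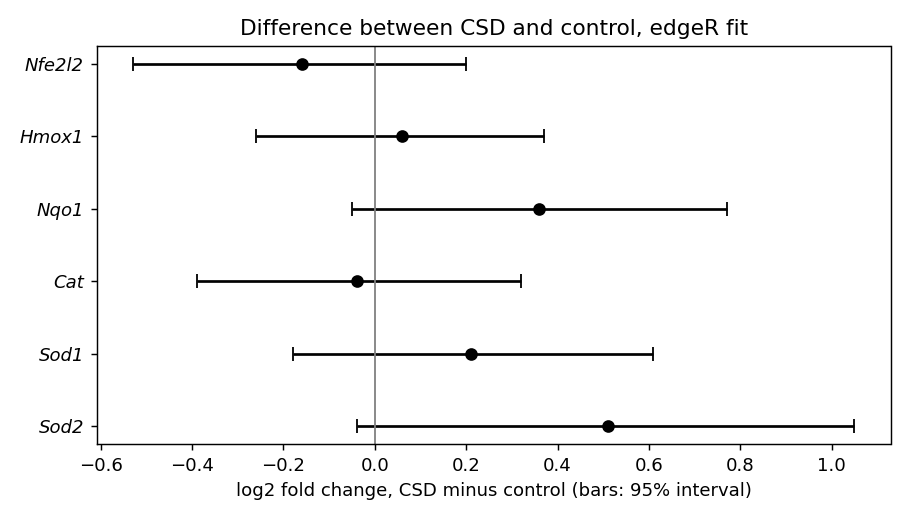
Log2 fold change of CSD against control for each gene (x axis) with its 95% interval from the edgeR fit; the grey line marks no difference. All 6 intervals include 0, and those of Nqo1 (-0.05 to 0.77) and Sod2 (-0.04 to 1.05) reach it at their lower end.

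The upper bounds of the intervals differed among the genes. They lay at 1.15-fold for Nfe2l2, 1.25-fold for Cat and 1.29-fold for Hmox1, against 1.53-fold for Sod1, 1.71-fold for Nqo1 and 2.08-fold for Sod2. The lowest lower bound, for Nfe2l2, was 0.69-fold. Differences in mRNA level within these bounds were not resolved with 3 libraries a group.

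**Figure D3:**
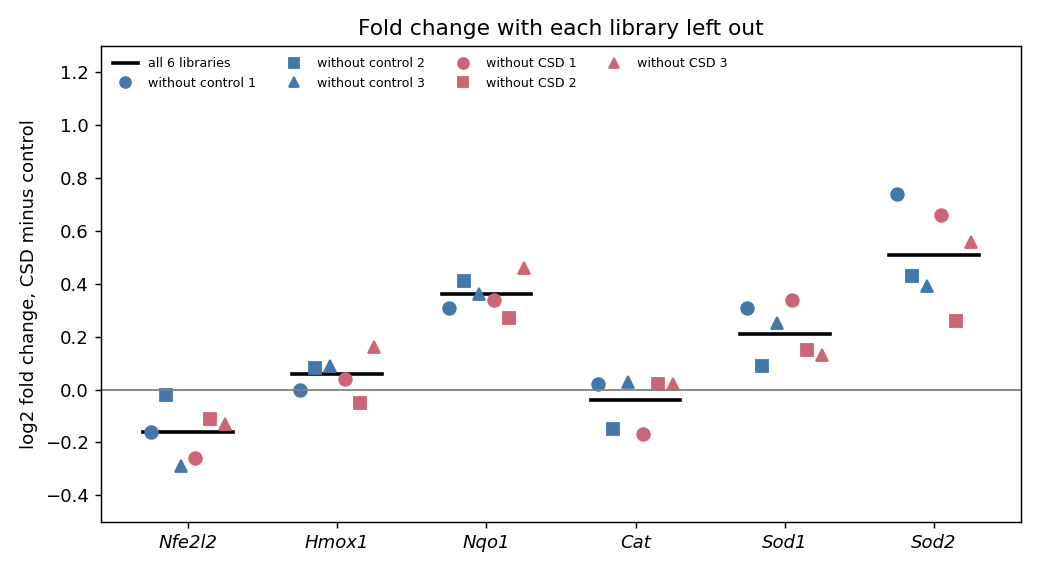
Log2 fold change of CSD against control (y axis) for each gene with all 6 libraries (black line) and with each library left out in turn (points; colour and shape name the library left out). Nqo1, Sod1 and Sod2 stay above 0 and Nfe2l2 below it throughout, Hmox1 and Cat fall on both sides, and Sod2 runs from 0.26 without CSD 2 to 0.74 without control 1.

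The genes also differed in how much they varied between libraries of one group. Sod2 had the widest spread, with a coefficient of variation of 25.6% in controls and 28.3% in CSD, against medians of 14.8% and 14.9% over all tested genes. Among all tested genes 24.4% varied more than Sod2 in controls and 21.7% in CSD. At its lowest count of 1144 reads, counting error accounts for 2.96%. Hmox1 was the steadiest among controls, at 6.81%, and Nfe2l2 the steadiest in CSD, at 10.6%. For Nqo1 the spread of 7.40% in controls and 12.8% in CSD was of the size of its counting error, 10.2% at 96 reads. Over all 6 libraries the highest level was 1.32 times the lowest for Hmox1, 1.35 times for Cat, 1.45 times for Nfe2l2, 1.55 times for Nqo1, 1.56 times for Sod1 and 2.26 times for Sod2.

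No library was high or low for the whole set. With TMM scaling, CSD 2 held the highest level for 3 genes (Hmox1, Nqo1 and Sod2), yet its Nfe2l2 and Cat levels were the second lowest of the 6 libraries. Control 2 was highest for Nfe2l2 and lowest for Cat and Sod1. Control 1, CSD 1 and CSD 2 each lay above the gene's mean log2 level over the 6 libraries for 4 of the 6 genes, and control 2, control 3 and CSD 3 each did so for 2.

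Ratios of reads between 2 genes within a library need no scaling between libraries, and 15 such pairs were compared. Differences in the mean log2 ratio between CSD and control ran from -0.65 (Nfe2l2 to Sod2) to 0.39 (Nqo1 to Cat). The former rested on single libraries, being -0.38 without CSD 2 and -0.91 without CSD 1. The groups did not overlap for 2 of the 15 pairs, both with Nqo1, which also lay apart by itself after TMM scaling. Among all tested genes taken singly, 16.8% had groups that did not overlap in either direction. No such share was computed for ratios between other genes. Hmox1 had 14.7, 14.2 and 15.3 reads per Nqo1 read in controls 1, 2 and 3 and 11.8, 12.1 and 11.9 in CSD 1, 2 and 3. The libraries of each group were nearly equal in this ratio, with an SD of 0.05 in controls and 0.02 in CSD on the log2 scale, although counting error alone gives each value an SE of 0.12 to 0.15. The difference was -0.31 on the log2 scale. Its exact two-sided permutation test gave p = 0.1, the smallest possible, and 0.75 after Benjamini-Hochberg adjustment over 15 pairs. Leaving out any 1 library gave -0.33 to -0.28. This range is narrower than the counting SE of a single value and does not measure that error. The permutation test used for the ratios cannot give less than 0.1 with 3 against 3 libraries, so its p could not fall under 0.05 for any pair.

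Nfe2l2 had 7.59, 7.73 and 5.69 reads per Nqo1 read in controls 1, 2 and 3 and 5.37, 4.01 and 5.42 in CSD 1, 2 and 3. Control 3 and CSD 3 lay closer to each other than their counting errors, at log2 ratios of 2.51 and 2.44 with an SE of 0.15 each. The difference between the groups was -0.51 (exact permutation test p = 0.1, the smallest possible; 0.75 adjusted over 15 pairs), and -0.36 (without CSD 2) to -0.65 (without control 3) with 1 library left out. Among the enzymes of superoxide and peroxide, Cat had 1.06, 1.22 and 1.69 reads per Sod2 read in controls and 1.35, 0.613 and 0.880 in CSD. CSD 2 and CSD 3 were below every control and CSD 1 was not, with a difference of -0.53 (exact permutation test p = 0.3; 0.75 adjusted). Without CSD 2 this difference was -0.26, without control 3 it was -0.34 and without CSD 1 it was -0.83. Sod1 had 1.11, 1.20 and 1.61 reads per Sod2 read in controls and 1.10, 0.859 and 1.25 in CSD, and these groups overlapped (difference -0.29; exact permutation test p = 0.4; 0.75 adjusted). That difference was -0.13 without control 3, -0.14 without CSD 2 and -0.41 without CSD 3. Levels of different genes were not compared as such, since no transcript lengths were used.

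**Figure D4:**
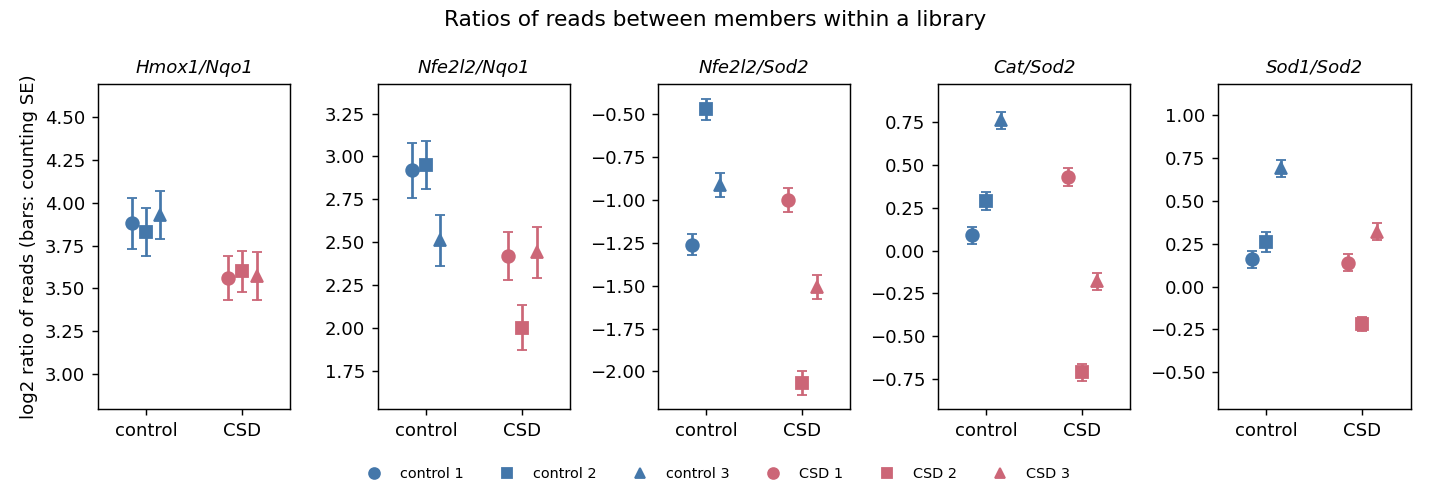
Log2 ratio of reads between 2 genes of the set within each library (y axis, each panel spanning the same range of log2 units). The panels show 5 of the 15 pairs, among them both pairs whose groups did not overlap. Bars give the standard error from counting alone. Hmox1 to Nqo1 separates the groups (14.2 to 15.3 in controls against 11.8 to 12.1 in CSD as a linear ratio). Nfe2l2 to Nqo1 does so by less than the counting error, and the other 3 pairs shown overlap.

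Correlations of log2 CPM across the 6 libraries were computed for the same 15 pairs, and 0 had an adjusted p under 0.05. The strongest were Nfe2l2 with Sod1 (Pearson's r = -0.79, permutation p = 0.0708, adjusted 0.590; Spearman's rho = -0.60, permutation p = 0.242, adjusted 1) and Sod1 with Sod2 (r = 0.75, permutation p = 0.0792, adjusted 0.590; rho = 0.77, permutation p = 0.103, adjusted 1). Without the 2 libraries farthest from the median of the first gene, r was -0.82 and 0.76. For Nfe2l2 the libraries left out were control 2 and control 3, so control 1 alone remained of its group. Other pairs were not stable to this step. It moved r from -0.17 to 0.98 for Nfe2l2 with Cat and from 0.54 to -0.11 for Nqo1 with Sod2. Hmox1 and Nqo1 had r = 0.70 (permutation p = 0.118, adjusted 0.590; rho = 0.60, permutation p = 0.242, adjusted 1; r = 0.67 without 2 libraries). Nfe2l2 correlated at -0.17 with Hmox1 (permutation p = 0.728; rho = -0.20, permutation p = 0.714) and at -0.24 with Nqo1 (permutation p = 0.635; rho = -0.03, permutation p = 1). The groups of 3 are too small for a value within each.

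As a measure of likeness, all 13430 other tested genes were ranked by their Pearson correlation with each gene of the set over the 6 libraries. Nqo1 ranked 423 for Hmox1, and Hmox1 ranked 952 for Nqo1. Sod2 ranked 1616 for Sod1, and Sod1 ranked 1163 for Sod2. Hmox1 and Nqo1 ranked 8157 and 8748 for Nfe2l2. No gene of the set was thus the nearest in pattern to another, and the nearest genes are not named because their IDs could not be matched to symbols.

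The antioxidant response element was looked for in the promoters, since NRF2 acts through it. RefSeq promoter windows (build GRCr8, from 250 bases before to 50 after the annotated start) were matched by symbol for 5 of the 6 genes, not for Hmox1. The core TGACNNNGC, on either strand, was present in the windows of 2 of these 5, Sod2 and Nfe2l2, and in 12.1% of all 33469 windows. In the Sod2 window it lies on the opposite strand. Read along the strand of the gene, the first base of the match is 35 bases before the start. In the Nfe2l2 window it lies on the gene's own strand, at base 39 of the transcript. Both stretches are shown 5′ to 3′ on the strand of the gene, with the match to the core in capitals, because they are the only matches in the set.
Sod2 (chr1:50050185-50050213, GRCr8, minus strand): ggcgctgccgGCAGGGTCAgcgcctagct
Nfe2l2 (chr3:81028951-81028979, GRCr8, minus strand): actgctccgactagccatTGACGCCGCct
The windows of Nqo1, Cat and Sod1 do not hold these letters. A match or its absence in so short a window describes the sequence alone and was not set against the measured levels.

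Other genes of the pathway were listed by symbol: KEAP1 and other partners of NRF2, the glutathione and thioredoxin systems, heme and iron handling, NADPH supply and oxidant sources. Markers of red cell precursors, macrophages, neutrophils, muscle, fat and bone cells were listed too. None was compared here, since their IDs could not be matched. Differences in the share of such cells among femurs were not tested beside the values of Hmox1, Cat or Sod2.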

How the data were processed

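Raw gene counts of 6 femur libraries were used as the authors deposited them, in 1 table. The rn6 build, HISAT2 2.2.1 and HTSeq 0.12.4 are named without roles, per the submitters' processing notes. Annotation release and strand setting: not given in the sources used here, so a gene and an overlapping or antisense partner may share reads. The 5 closing rows, which name no gene, stayed out of library sizes and tests. Their share of the reads was 63.3% to 63.8% in controls and 61.8% to 62.9% in CSD, so the groups did not overlap in it. The largest of these rows, reads assigned to no annotated feature, held 45.5% to 47.1% of the reads. The cause of these shares was not tested.

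Groups and numbers were taken from the sample titles. Genes were kept with edgeR's filterByExpr and scaled with TMM factors. The factors were 1.02 to 1.07 in controls and 0.912 to 1 in CSD, so they too did not overlap between groups. CSD was compared with control by edgeR 4.0.16's quasi-likelihood test (two-sided, no covariate), adjusted by Benjamini-Hochberg over 13431 genes at 0.05. Fold changes, on the log2 scale, take control from CSD (prior count 0.125). Each SE was obtained as the size of the log2 fold change over the root of its F, and 95% intervals use the fit's degrees of freedom. Permutation tests and correlations used log2 CPM with a prior count of 2; ratios used raw counts. Counting intervals cover counting error only, and reads without molecular identifiers are not independent molecules. The 17 alternative analyses were other scalings, filters and tools (DESeq2 1.42.0, limma 3.58.1; R 4.3.3), the replicate number as a block and each library left out; DESeq2 on filtered genes was added after seeing the data, as was leaving libraries out of the ratios. The test was checked on simulated counts, whose planted log2 changes were all larger than those of the 6 genes. Planted changes as small as theirs were not simulated. No pair of libraries in a group was a duplicate (chi-square per degree of freedom at least 19.8). The rule for named genes was the 6 genes of the list, whatever their values; other pathway genes and genes most alike in pattern were to be named only where a symbol could be matched, and 0 IDs could. The genes, lists and tests were chosen with earlier results of these data known.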

Additional observations from a re-analysis of the deposited data

How the results depend on the processing

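None of the 6 genes passed an adjusted p of 0.05 in any of the 18 alternatives, and 102 of the 108 values kept their direction. Hmox1 turned to -0.08 with library totals alone (0.05 relative to the median of all genes, which that scaling moved to -0.13) and ranged from -0.05 to 0.16 with 1 library left out. Cat ranged from -0.17 to 0.03, being 0.02 without control 1, CSD 2 or CSD 3 and 0.03 without control 3. With 1 library left out Nfe2l2 ranged from -0.29 to -0.02, Nqo1 from 0.27 to 0.46, Sod1 from 0.09 to 0.34 and Sod2 from 0.26 to 0.74. An unadjusted p under 0.05 appeared in 6 alternatives for Sod2 and 2 for Nqo1. Of all genes, 0 passed the adjusted threshold; the count became 112 without a filter, 297 with DESeq2 on all genes, 278 with DESeq2 on the filtered genes and 0 to 230 with 1 library left out (151 without control 1, 230 without CSD 1, 73 without CSD 3), and the cause was not tested. With the replicate block it became 104, but libraries sharing a number had deviations with correlations of -0.01, -0.06 and 0.17, the labels do not pair them, and none of the 6 genes passed. Genes at an unadjusted p under 0.05, 1679 in the main analysis, numbered 2962 when voom used quality weights; with 1 library left out they ran from 870, where it was CSD 2, to 2726, where it was CSD 1. Depth limits Nqo1 most, at 96 to 146 reads a library. Pathway and marker lists were not run.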
